A study of Mus musculus with 5 samples.

Results

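The genes described here are 9 genes of the epithelial-mesenchymal transition (EMT), taken by symbol out of 19938 named genes on the array. They are the transcription factor genes Snai1, Snai2, Zeb1, Zeb2 and Twist1, the epithelial surface genes Cdh1 and Epcam, and the mesenchymal genes Cdh2 and Vim. Each was found by its symbol, and each had 1 feature on the array with that symbol alone. The cells were mouse embryonic stem cells of the C57BL/6 strain, not differentiated, and RNA was taken from 3 Mkl2-/- and 2 wild-type independent cultures. Mkl2, now named Mrtfb, encodes a coactivator that works through serum response factor (SRF), and the series asks how its loss affects TGF-β signalling. All cultures were kept undifferentiated with leukaemia inhibitory factor and serum on a layer of mouse embryonic fibroblasts, and before RNA extraction the feeders were left to attach for 1 h and the floating stem cells were taken. The labels do not say how the Mkl2 allele was made or whether the cultures of a genotype came from 1 or several clones, so the tests measure the spread between these cultures. Values are deposited log2 expression, and a difference is Mkl2-/- minus wild type on the log2 scale.

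In EMT, an epithelial cell gives up the junctions that hold it to its neighbours and takes on a motile, mesenchymal form. The zinc finger proteins encoded by the Snai and Zeb genes and the basic helix-loop-helix protein encoded by Twist1 drive the change, the Snai and Zeb proteins mainly by binding E-box motifs in the promoters of epithelial genes such as Cdh1 and repressing them. Cdh1 encodes E-cadherin, which holds embryonic stem cell colonies together, and Epcam encodes a surface adhesion protein that undifferentiated stem cells carry. Cdh2 encodes N-cadherin and Vim the intermediate filament protein vimentin, both raised when cells become mesenchymal. TGF-β is a known inducer of Snai1, and microRNAs of the miR-200 family are known to repress Zeb1 and Zeb2, which in turn repress the miR-200 genes.

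The promoter sequences of Snai1 and Epcam are shown because, of the promoter windows used for these genes, they were those that hold an E-box. RefSeq promoter windows (build GRCm38.p6), running 250 bases before to 50 bases after a gene's start, matched 5 of the 9 genes, with 8 windows in all. Each is printed 5′ to 3′ on the gene's strand with every E-box of the general form CANNTG in capitals. The Snai1 window lies at chr2:167537945-167538244 (plus strand) and the Epcam window at chr17:87635729-87636028 (plus strand).
Snai1: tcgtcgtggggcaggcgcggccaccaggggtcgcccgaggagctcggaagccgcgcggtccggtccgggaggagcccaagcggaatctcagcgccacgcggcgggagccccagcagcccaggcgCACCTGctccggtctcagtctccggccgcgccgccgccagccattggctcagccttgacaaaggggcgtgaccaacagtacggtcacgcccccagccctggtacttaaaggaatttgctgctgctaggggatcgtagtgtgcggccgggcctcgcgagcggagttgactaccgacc
Epcam: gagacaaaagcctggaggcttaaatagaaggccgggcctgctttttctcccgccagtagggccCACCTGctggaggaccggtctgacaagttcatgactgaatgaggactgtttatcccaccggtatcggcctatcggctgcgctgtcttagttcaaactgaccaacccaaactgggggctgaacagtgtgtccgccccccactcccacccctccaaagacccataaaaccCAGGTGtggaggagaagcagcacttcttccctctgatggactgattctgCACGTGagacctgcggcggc
The search covered both strands, and CAGGTG and its reverse complement CACCTG, the form that the Snai and Zeb proteins favour, were counted as 1 motif. The Snai1 window held 1 such motif, with its first base 126 bases before the start. The Epcam window held 2, whose first bases lie 187 and 19 bases before the start, and 1 further CANNTG match of another form. Of 32851 promoter windows, with no chromosome left out, 20.2% held CAGGTG on either strand and 72.3% held CANNTG. None of these letters stood in the windows of Zeb2, Twist1 or Vim, and the CArG box, the motif that SRF binds, stood in 0 of the 8 windows, against 1.63% of all windows. A match is a description of the sequence and no evidence of binding.

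The arrays of a genotype were close to each other, with Pearson correlations across genes of 0.998 to 0.999 within and 0.992 to 0.994 between genotypes. Wild-type replicate 1 held the same value to 2 decimals as Mkl2-/- replicate 1 in 27.5% of genes and as wild-type replicate 2 in 19.4%. The targeted gene, read by its brightest feature, had 9.32, 9.32 and 9.09 in Mkl2-/- cultures, against 9.80 and 9.75 in wild type, a difference of -0.53 ± 0.09 (SE; limma adjusted p = 0.048). Its other 2 features differed by -0.83 ± 0.07 and -0.98 ± 0.11 (adjusted p = 0.014 and 0.022 in the fit over all features). Whether any of them lies in a deleted part is not given. The stem cell genes Pou5f1 (12.52 to 12.54 in Mkl2-/-, 12.48 and 12.52 in wild type) and Sox2 (11.87 to 11.92 in Mkl2-/-, 11.81 and 11.83 in wild type) were far above the background level of 7.30 on all 5 arrays and did not pass the test. Of 20 stem cell markers, however, 5 were higher and 3 lower in Mkl2-/- (40.0% passed, against 9.27% of all genes). Nanog fell, with 10.96 to 11.15 in Mkl2-/-, against 12.18 and 12.17 in wild type (-1.14 ± 0.07, limma adjusted p = 0.0082). Klf4 (-0.69) and Tfcp2l1 (-0.665) fell too, while Dppa4 (0.74) and Fgf4 (0.67) were among those that rose. The part of these differences in the results below was not tested. The background level is the 95th percentile of the mean values of 1027 olfactory receptor genes.

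Of the 9 genes, Snai1 and Zeb2 fell in Mkl2-/- cells, Twist1 and Cdh1 rose, and 5 did not pass the test, an adjusted p of 0.05 in limma with Benjamini-Hochberg adjustment over all 19938 genes. Over all genes 9.27% passed, 2.99% higher and 6.28% lower, and among the 13553 genes above background 12.9% passed. The arrays of the groups did not overlap for 8 of the 9 genes, 3 of them higher and 5 lower in Mkl2-/-. Over all genes 33.6% did not overlap, 16.9% higher and 16.7% lower. The median difference of the 9 genes was -0.10, beside 0.02 over all genes. The changes were small, with Zeb2 the only one of the 9 near 2-fold.

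**Figure D1:**
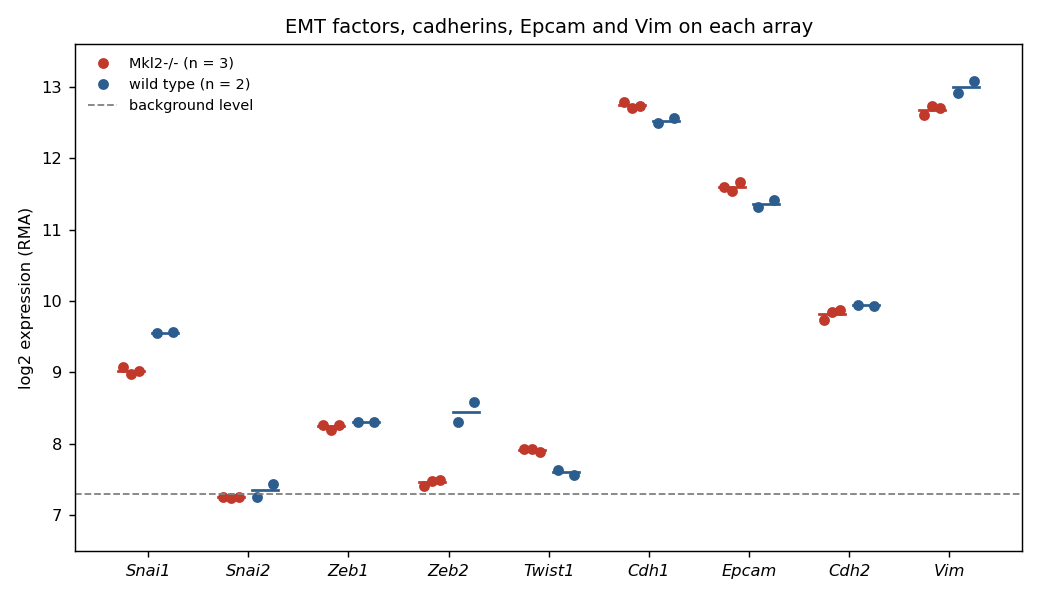
Log2 expression of the 9 genes on each array, with Mkl2-/- cultures (red, n = 3) left of wild-type cultures (blue, n = 2); bars are group means and the dashed line is the background level of 7.30. Snai1, Zeb2, Vim and, by little, Zeb1 and Cdh2 sit lower on every Mkl2-/- array. Twist1, Cdh1 and Epcam sit higher on each, and Snai2 lies at background. Heights of different genes come from different probes and are not comparable.

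Snai1, which encodes the repressor SNAIL, fell 1.44-fold. It read 9.08, 8.98 and 9.02 in Mkl2-/- cultures, against 9.55 and 9.56 in wild type. All 3 Mkl2-/- values lay below both wild-type values, and the arrays of each group lay close together. In such bulk samples, fewer cells of a type and less RNA per cell cannot be told apart. The difference was -0.53 ± 0.03 (SE, n = 3 and 2; limma adjusted p = 0.0096, 95% interval -0.625 to -0.43). The 10 expressed genes next to Snai1 on chromosome 2 had a median difference of 0.00, and 0 of them passed. Among all genes above background 12.9% passed.

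Snai2, which encodes the related repressor SLUG, was not detectable above background in Mkl2-/- cells. Its feature read 7.26, 7.24 and 7.26 in Mkl2-/- cultures, against 7.26 and 7.44 in wild type, so that a single wild-type array stood above the level of 7.30. The difference of -0.10 ± 0.06 did not pass (limma adjusted p = 0.39). It passed only without wild-type replicate 1 (-0.19, adjusted p = 0.045; range over all alternatives 0.045 to 1.0) and was -0.01 without wild-type replicate 2. Snai2 lies on chromosome 16 as Mkl2 does, with 14 expressed genes between them, of which 3 were higher and 1 lower in Mkl2-/- (median 0.05). Of all genes above background 12.9% passed in either direction.

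Zeb2 had the largest difference of the 9 genes, and its relative Zeb1 did not pass. Both encode zinc finger and homeodomain repressors. Zeb2 read 7.41, 7.48 and 7.50 in Mkl2-/- cultures, against 8.31 and 8.59 in wild type. The Mkl2-/- values stood just above background and well apart from both wild-type values, and the wild-type arrays differed by more than for any other of the 9 genes. Zeb2 fell 1.98-fold (-0.99 ± 0.10, limma adjusted p = 0.017, 95% interval -1.26 to -0.71). With the background level set at the 99th percentile of the olfactory receptor genes, 8.07, all 3 Mkl2-/- arrays lay below it and the fall was at least 1.30-fold. Zeb1 read 8.27, 8.20 and 8.27 in Mkl2-/- cultures, against 8.30 and 8.31 in wild type. Its groups did not overlap, but the difference of -0.06 ± 0.03 did not pass (limma adjusted p = 0.35, 95% interval -0.14 to 0.02).

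Twist1, which encodes a mesodermal basic helix-loop-helix factor, moved the other way. It read 7.93, 7.93 and 7.88 in Mkl2-/- cultures, against 7.64 and 7.57 in wild type. All values were close to background and the groups were clearly separate. Twist1 rose 1.24-fold (0.31 ± 0.03, limma adjusted p = 0.018). Both groups lay below the 99th percentile of the olfactory receptor genes. The 10 expressed genes around it on chromosome 12 had a median difference of -0.07 and none passed, against 12.9% of genes above background.

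Cdh1 rose slightly and Epcam was higher on every Mkl2-/- array without passing. Cdh1 read 12.79, 12.71 and 12.73 in Mkl2-/- cultures, against 12.49 and 12.56 in wild type. Each Mkl2-/- value lay above both wild-type values, and Cdh1 rose 1.16-fold (0.22 ± 0.04, limma adjusted p = 0.049, 95% interval 0.11 to 0.32). The fit over all features gave an adjusted p of 0.0501, which no longer passed (range over all alternatives 0.016 to 0.58). Epcam read 11.59, 11.54 and 11.67 in Mkl2-/- cultures, against 11.32 and 11.41 in wild type. Its difference of 0.235 ± 0.053 (1.18-fold) had a limma adjusted p of 0.088. Epcam passed in 4 of 16 alternatives, among them a further quantile normalization (0.26, adjusted p = 0.019; range over all alternatives 0.019 to 1.0).

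Cdh2 and Vim were lower on every Mkl2-/- array, and neither passed. Cdh2 read 9.74, 9.85 and 9.87 in Mkl2-/- cultures, against 9.95 and 9.93 in wild type, a difference of -0.12 ± 0.05 (limma adjusted p = 0.26, 95% interval -0.25 to 0.01). Its highest Mkl2-/- value and its lowest wild-type value were close together. Vim read 12.61, 12.73 and 12.70 in Mkl2-/- cultures, against 12.92 and 13.08 in wild type, a difference of -0.32 ± 0.07 (1.25-fold; limma adjusted p = 0.076, 95% interval -0.51 to -0.13). Vim passed in 5 of 16 alternatives (range of adjusted p over all alternatives 0.016 to 0.65), among them the fit of genes above background alone (adjusted p = 0.048).

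**Figure D2:**
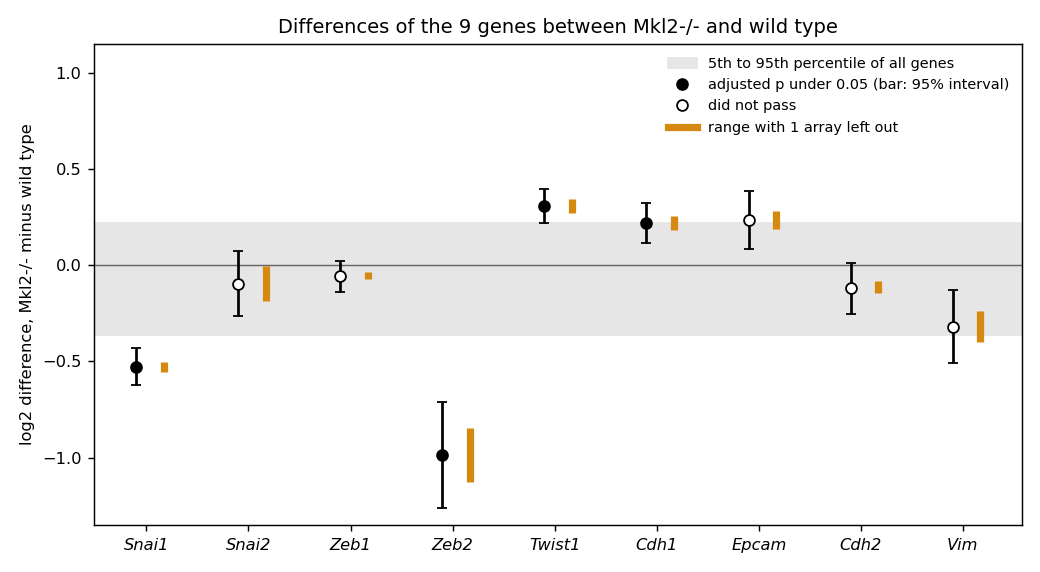
Log2 difference, Mkl2-/- minus wild type, for each of the 9 genes with its 95% interval from limma (filled where the adjusted p was under 0.05), beside the range with 1 array left out (orange). Zeb2 and Snai1 lie below and Twist1 above the grey band from -0.36 to 0.22, the 5th to 95th percentile of all genes, with Epcam (0.235) just above its upper edge and Cdh1 at it.

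With any single array left out, no difference among the 9 genes turned its sign, while most calls were lost. The difference of Snai1 ranged from -0.555 to -0.505, of Zeb2 from -1.13 to -0.85, of Twist1 from 0.27 to 0.34 and of Cdh1 from 0.18 to 0.25. Snai1 passed without Mkl2-/- replicate 1 or 2, and Zeb2 and Snai2 passed without wild-type replicate 1. None of the 9 passed in limma without wild-type replicate 2 or without Mkl2-/- replicate 3. Without wild-type replicate 2 no gene of the 19938 passed, while 4411 had an unadjusted p under 0.05.

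Fibroblast genes were followed because feeder cells also express some of the 9 genes. Of 39 measured fibroblast markers, 32 were above background. In all, 12.8% of the 39 passed, against 9.27% of all genes and 12.9% of genes above background. In Mkl2-/-, 1 was higher (Crip1, 0.35) and 4 were lower. The lower ones were Igfbp4 (-0.99), Has2 (-0.76), Pdgfrb (-0.28) and Mmp2 (-0.26). The summed linear intensity of all 39 was 12325 to 12866 in Mkl2-/- cultures, against 13645 and 13763 in wild type. Without Crip1, the brightest marker, it was 10467 to 10956 in Mkl2-/-, against 12197 and 12253 in wild type. Below background on all 5 arrays were 7 markers, among them Postn, Lum, Ogn and Fap, while the collagen gene Col1a1 (8.99 to 9.07 in Mkl2-/-, 9.42 and 9.24 in wild type) and Thy1 (8.44 to 8.53 in Mkl2-/-, 8.65 and 8.49 in wild type) were above it and did not pass. With the mean of these markers as a covariate no gene passed in limma (1660 had an unadjusted p under 0.05). The difference of Snai1 was then -0.30 ± 0.05 (adjusted p = 0.50; range over all alternatives 0.000939 to 0.50) and that of Zeb2 -1.22 ± 0.40 (adjusted p = 0.62; range 0.00104 to 0.62). Other differences were larger with the covariate, also with larger errors: Vim at -0.64 ± 0.22, Cdh2 at -0.41 ± 0.11 and Cdh1 at 0.40 ± 0.12, beside -0.32, -0.12 and 0.22 without it. The covariate itself separated the genotypes, with means of 7.79 to 7.84 in Mkl2-/- and 7.94 and 7.95 in wild type. This fit therefore cannot tell feeder cells apart from genotype, and the part of carried-over feeder cells in these differences was not tested.

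Some primitive endoderm markers also differed between the genotypes. Of 27 measured, 7 were higher and 4 lower in Mkl2-/- (40.7% passed, against 9.27% of all genes). The summed linear intensity of the 27 was 25483 to 28039 in Mkl2-/-, against 23520 and 22918 in wild type. The gap in the sum came from Srgn, which encodes a proteoglycan core protein and read 11.78, 11.83 and 12.17 in Mkl2-/-, against 7.05 and 6.94 in wild type. Without Srgn, left out after its values were seen, the sums overlapped, at 21967 to 23431 in Mkl2-/- and 23388 and 22795 in wild type. Bright genes weigh most in such a sum. The mean log2 value of all 27, Srgn included, was 8.92 to 9.06 in Mkl2-/-, against 8.60 and 8.53 in wild type. The endoderm factor genes Gata4 (0.93 ± 0.09) and Gata6 (0.935 ± 0.099) rose, with limma adjusted p-values of 0.016 and 0.020, while Foxa2 stood at 8.27 on every array. Also higher were Cubn (2.87), Lama1 (1.45), Pdgfra (0.75) and Lamb1 (0.19). The 4 lower markers were Cited1 (-0.64), Serpinh1 (-0.59), Lrp2 (-0.57) and Sparc (-0.24). The part of the endoderm markers in the differences of the 9 genes was not tested.

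Some chromosomal neighbours of Cdh1 were higher too. Of the 10 expressed genes next to Cdh1 on chromosome 8, 7 had a positive difference and 3 passed as higher, with a median of 0.25, which is above the difference of Cdh1 itself (0.22). In gene order they were Zfp90 (0.30) and Cdh3 (0.36), the gene of P-cadherin, on one side, neither past the test, and Tango6 (0.20), Chtf8 (0.25), Utp4 (0.26), Sntb2 (0.76) and Vps4a (0.40) on the other, of which the last 3 passed. Over 20 neighbours the median was 0.07, with 4 higher and 1 lower. For each of the other 8 genes the median of the 10 neighbours lay between -0.07 and 0.10. Zeb2 had some lower genes near it, named after their values were seen: Kynu (-0.77) and Lypd6b (-0.38) fell, and the median of its 10 neighbours was -0.06. Over 20 neighbours 5 were lower and 0 higher, with Nr6a1 (-0.57), Rnd3 (-0.465) and Lypd6 (-0.44) also lower, and the median was -0.05. Beside these neighbour counts, 2.99% of all genes passed as higher and 6.28% as lower. Of genes above background 12.9% passed in either direction. Cubn, the gene of the endocytic receptor cubilin, lies next but one to Vim among expressed genes and rose by 2.87, while Vim differed by -0.32.

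**Figure D3:**
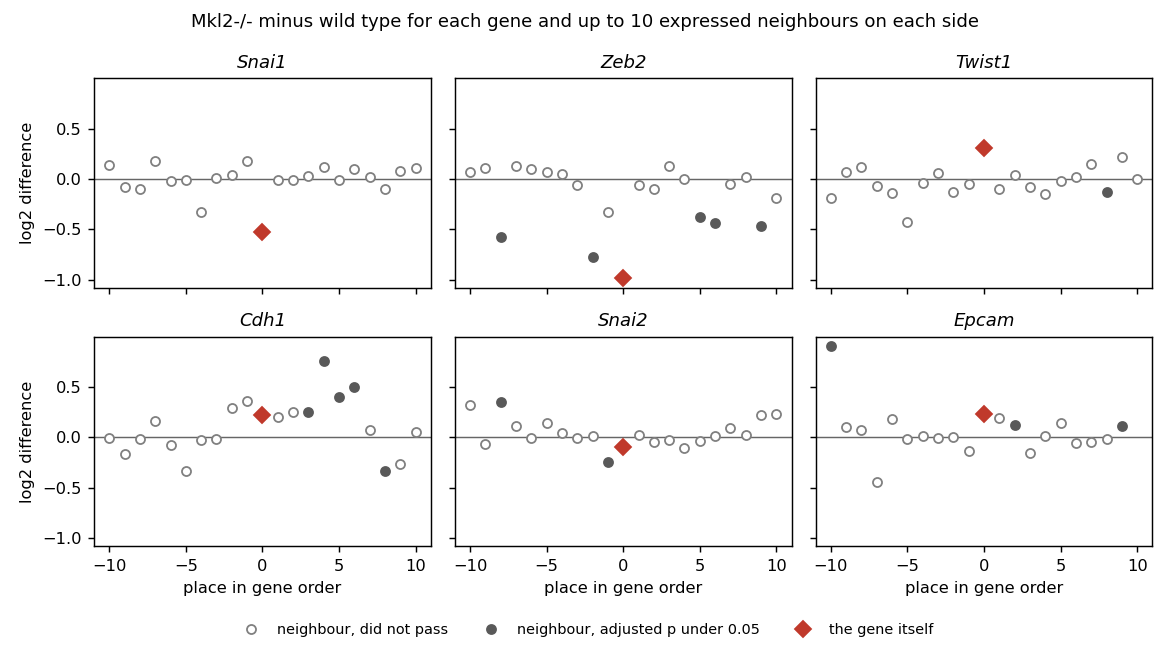
Log2 difference, Mkl2-/- minus wild type, of Snai1, Zeb2, Twist1, Cdh1, Snai2 and Epcam (red diamonds) and of up to 10 expressed genes on each side in RefSeq gene order (circles, filled where the adjusted p was under 0.05). The neighbours of Snai1 and Twist1 have medians near 0, though single ones reach -0.33 beside Snai1 and -0.43 beside Twist1, whereas Cdh1 (0.22) lies within a short run of higher genes that reaches 0.76 at Sntb2.

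The genes of the miR-200 family are the known counterpart of Zeb1 and Zeb2, and their mature sequences are shown because a shared seed sets which targets they pair with. The RefSeq sequences (build GRCm38.p6) matched all 5 family members and are printed 5′ to 3′ with the seed, bases 2 to 8, in capitals.
miR-200b-3p: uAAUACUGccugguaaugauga
miR-200c-3p: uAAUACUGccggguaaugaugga
miR-429-3p: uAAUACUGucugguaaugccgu
miR-200a-3p: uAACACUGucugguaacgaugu
miR-141-3p: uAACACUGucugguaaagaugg
The first 3 share the seed AAUACUG, which pairs with CAGUAUU, and the other 2 share AACACUG, which pairs with CAGUGUU. Array features for microRNA genes may read precursor or host transcripts. The feature of Mir429 also carries another symbol and was not used. Mir200b read 7.47, 7.49 and 7.13 in Mkl2-/- cultures, against 6.36 and 6.64 in wild type. It was higher on every Mkl2-/- array, though both wild-type values and one Mkl2-/- value lay below background, and the difference of 0.86 ± 0.16 did not pass (limma adjusted p = 0.060). Mir200a, a neighbour in the same cluster on chromosome 4, read 8.11, 8.07 and 8.07 in Mkl2-/-, against 8.07 and 7.92 in wild type, and did not pass (0.09 ± 0.05, adjusted p = 0.39). Mir200c and Mir141, on chromosome 6, lay below background on all 5 arrays.

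Other transcription factor genes linked to EMT fell or did not pass. Of 22 measured, 19 of them above background, 0 were higher and 4 lower in Mkl2-/-. Of the 22, 18.2% passed, against 9.27% of all genes and 12.9% of genes above background. The median difference was -0.01, beside 0.02 over all genes. The 4 were Sox9 (-0.78 ± 0.04), a SOX factor of neural crest and cartilage, Hmga2 (-0.54 ± 0.05), a chromatin protein that in other cells acts upstream of Snai1, Tcf4 (-0.425 ± 0.053), an E-protein partner of TWIST proteins, and Sox4 (-0.42 ± 0.06). Their limma adjusted p-values lay between 0.0079 and 0.030. Hmga2 read 10.56, 10.58 and 10.68 in Mkl2-/-, against 11.11 and 11.19 in wild type. The other E-protein genes, Tcf12 (-0.29 ± 0.05, limma adjusted p = 0.053) and Tcf3 (0.165 ± 0.060, adjusted p = 0.23), did not pass. Close relatives of the members did not pass: Snai3 differed by 0.01 and Twist2 by -0.19. Prrx1, another EMT factor gene of the list, differed by -0.02 and did not pass.

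Factors that hold the epithelial state moved both ways. Of 19 measured, 3 rose (Klf5, Ovol2 and Grhl2) and 2 fell (Klf4 and Tfap2a), with a median of 0.00. In all, 26.3% passed, against 9.27% of all genes and 12.9% of genes above background. Grhl2, a grainyhead factor that activates Cdh1 and the miR-200 genes in epithelia, read 9.45, 9.53 and 9.43 in Mkl2-/- cultures, against 9.19 and 9.20 in wild type. All its Mkl2-/- values were higher, and it rose by 0.275 ± 0.036 (limma adjusted p = 0.029). Ovol2, a zinc finger repressor of Zeb genes, rose by 0.12 ± 0.01 (adjusted p = 0.019) and Klf5 by 0.28 ± 0.03 (adjusted p = 0.015). Klf4, a stem cell and epithelial factor, fell by 0.69 on the log2 scale (adjusted p = 0.0067). The splicing regulator gene Esrp1 differed by 0.125 ± 0.026 and did not pass (adjusted p = 0.072).

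Epithelial junction and surface genes changed in both directions. Of 47 measured, all above background, 4 rose and 6 fell, with a median of -0.02. Of these 47, 21.3% passed, against 9.27% of all genes and 12.9% of genes above background. Rab25, an epithelial small GTPase, rose most, with 10.06, 10.12 and 10.15 in Mkl2-/- cultures, against 8.64 and 8.50 in wild type (1.54 ± 0.06, limma adjusted p = 0.0060). Ap1m2, an adaptor subunit for basolateral sorting (0.96 ± 0.05), Mal2, a transcytosis protein gene (0.50 ± 0.03), and Itgb4 (0.35 ± 0.04) also rose. Krt19 (-0.69 ± 0.05), Krt8 (-0.54 ± 0.05) and Krt18 (-0.65 ± 0.10), which encode simple epithelial keratins, fell, while Krt7 differed by -0.13 ± 0.07 and did not pass (adjusted p = 0.37). Falls were also seen for Dsp (-0.31), Tjp1 (-0.29) and Llgl2 (-0.34).

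Cadherin relatives and catenins mostly did not pass. Of 30 measured, 0 rose and 2 fell (6.67% passed, against 9.27% of all genes), with a median of 0.00. Ctnnd1, which encodes the catenin p120 that steadies cadherins at the membrane, read 11.65, 11.67 and 11.67 in Mkl2-/- cultures, against 11.82 and 11.80 in wild type. That difference, -0.15 ± 0.01, was small but larger than the spread in either group (limma adjusted p = 0.016). The protocadherin gene Pcdh1 fell by 0.53 on the log2 scale (adjusted p = 0.037). The catenin genes Ctnnb1 (-0.07 ± 0.03, adjusted p = 0.33) and Ctnna1 (0.03 ± 0.02, adjusted p = 0.40) and the mesenchymal cadherin gene Cdh11 (-0.09 ± 0.05, adjusted p = 0.39) did not pass.

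Among genes of the mesenchymal cytoskeleton and matrix, those that passed were all lower. Of 33 measured, 0 rose and 13 fell (39.4%, against 6.28% of all genes lower), with a median of -0.21, and 20 did not pass. The contractile genes Tagln (-1.93 ± 0.04) and Acta2 (-1.97 ± 0.10), known SRF targets, fell most, with limma adjusted p-values of 0.0041 and 0.0079. Itgb1 (-0.205 ± 0.012), an integrin chain, Ccn1 (-0.84 ± 0.06), a matricellular protein gene, and Fn1 (-0.61 ± 0.06), the fibronectin gene, also fell. Of the 33 genes 13 are also fibroblast markers; among the other 20, 11 fell and 0 rose. S100a4 (0.08), Col1a2 (-0.08), Col3a1 (0.05) and Postn (-0.05), often used to mark mesenchymal cells, did not pass, and Postn was below background on all arrays.

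**Figure D4:**
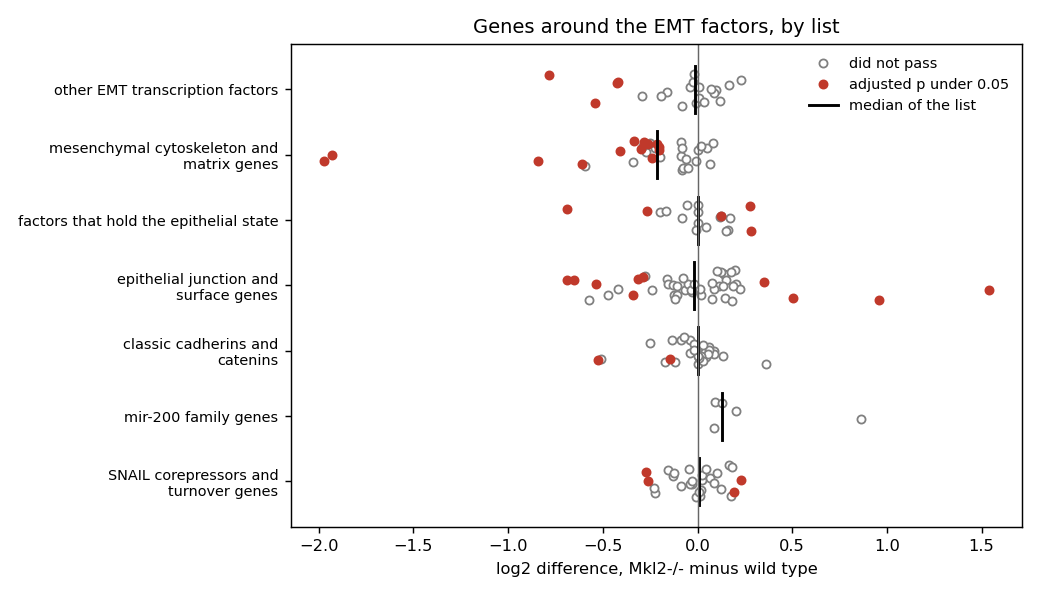
Log2 difference, Mkl2-/- minus wild type, of each measured gene in 7 lists around the EMT factors, with filled points for an adjusted p under 0.05 and a black bar at each list's median. The mesenchymal list has a median of -0.21 with 13 falls and no rises, while the medians of the junction, cadherin and epithelial factor lists lie within 0.02 of 0.

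Genes that work with SNAIL or set its turnover had small differences, from -0.27 to 0.23. Of 28 measured, all above background, 2 rose and 2 fell, with a median of 0.01, and 24 did not pass. Beside these counts, 9.27% of all genes and 12.9% of genes above background passed in either direction. Rcor1, a corepressor subunit, fell by 0.27 on the log2 scale and Prkd1, a kinase known in human cells to phosphorylate SNAIL, fell by 0.26 (limma adjusted p = 0.046 and 0.016). Ctbp2, a corepressor that ZEB proteins recruit (0.195 ± 0.025), and Ehmt2, a histone methyltransferase (0.23 ± 0.03), rose. The demethylase gene Kdm1a (0.025 ± 0.045) and the kinase gene Gsk3b (-0.13 ± 0.06) did not pass.

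Likeness of pattern was measured as the root mean square difference between log2 values centred on each gene's mean over the 5 arrays, among expressed genes, and gives no test. Nearest to Snai1 were Septin9 (0.010), Emb (0.014) and Nrcam (0.014). Septin9 read 10.25, 10.16 and 10.20 in Mkl2-/- cultures, against 10.74 and 10.76 in wild type. Nearest to Zeb2 were Serpinb9b (0.033), Usp18 (0.039) and F5 (0.047), and nearest to Twist1 were Grk6 (0.014), Plekhm1 (0.017) and Sipa1l3 (0.017). Cblc (0.0075), Ap5z1 (0.0080) and Prss36 (0.015) were nearest to Cdh1.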

How the data were processed

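The authors deposited log2 expression from Affymetrix Expression Console 1.1 (RMA, per the submitters' processing notes). This method corrects background, applies quantile normalization and summarizes probes, which compresses differences of dim genes. No label names a scan or extraction batch. Of 35556 features, 21789 had 1 gene symbol in the platform annotation, and the brightest feature of each gene by its mean over 5 arrays gave 19938 genes. The genotypes were tested gene by gene in both directions with limma 3.58.1 (lmFit, eBayes; R 4.3.3), and p-values were adjusted by Benjamini-Hochberg over all genes. In 776 genes neither group showed any spread, and the prior had 0.885 degrees of freedom, against 2.28 without those genes, beside 3 residual ones. The fit was also run on simulated arrays with independent noise for each gene. These held no effect shared by a whole array, so that run cannot test for one. No sample was left out, and 0 columns of values were unused. With arrays, the number of cultures limits precision. RefSeq tables (GRCm38.p6) gave gene order and sequences.

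The 9 genes and all lists were chosen with earlier results of these data known. The text names the 9 genes, Mkl2 and up to 4 genes of each list with the smallest p. It also names genes with a textbook role beside the 9, the neighbours of Cdh1, and the 3 genes most like each called member. Itgb4, Dsp, Tjp1, Llgl2, Krt7, Tcf3, Tcf12 and the other marker and neighbour genes were picked with their values in view. Alternatives were quantile and cyclic loess normalization, fits of brighter genes alone, a robust eBayes with trend, removal of genes with no spread, no moderation, averaging the features of a gene, testing every feature, replicate numbers as a block, a covariate from the fibroblast markers, leaving out each array, other background levels and a wider neighbour window. Figures were drawn with matplotlib 3.10.9.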

Additional observations from a re-analysis of the deposited data

How the results depend on the processing

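Of the 1848 calls over all genes, the count was 3234 after quantile normalization and 2982 after cyclic loess on top of the deposited values (1483 higher and 1751 lower after quantile normalization, against 596 higher and 1252 lower in the deposited values). It was 298 without moderation, and 0 with the replicate block (3827 with an unadjusted p under 0.05) and 0 with the fibroblast marker mean as covariate (1660). With single arrays left out it ranged from 0 (without wild-type replicate 2, with 4411 at an unadjusted p under 0.05) to 963, with fewer residual degrees of freedom in each such fit. Of the 9 genes 4 were called, and 6 under quantile normalization, cyclic loess or removal of genes with no spread; 0 were called without moderation, 0 with the replicate block, 0 with the covariate, and 0 to 2 with 1 array left out. The genotypes share replicate numbers 1 and 2, but the numbers are not stated to pair cultures, and same-numbered arrays deviated from their group means with correlations of -0.20 and 0.19. With the replicate block Snai1 differed by -0.525 and Zeb2 by -1.005. The sign of Zeb1 reversed with the covariate (0.081 ± 0.091); no other of the 9 genes changed sign in any alternative, and the causes were not tested. Twist1, Zeb2 and Snai2 were removed by a filter at the median gene and Snai2 also by the filter at the background level. The fold of Zeb2 was at least 1.30 at the 99th percentile level, where Twist1 has none because both groups lay below it. The neighbour median with 10 genes on each side was 0.07 for Cdh1, 0.02 for Snai2 and 0.01 for Cdh2. Snai2, Twist1, Zeb2 in Mkl2-/- cells and Mir200b lie so near background that their differences are the least certain.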
